A study of Bos taurus and Bos grunniens and Bubalus bubalis with 15 samples.

Results

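The genes described here encode nuclear subunits of the mitochondrial respiratory chain and of ATP synthase, measured in longissimus dorsi, a long back muscle. A gene was included when its symbol began with NDUFA, NDUFB, NDUFC, NDUFS or NDUFV and a digit (complex I), was SDHA, SDHB, SDHC or SDHD (complex II), or began with UQCR (complex III), with COX4 to COX8 (complex IV) or with ATP5 (complex V). This gave 79 genes, read by 100 of the 24016 probe sets that are not controls, out of 9155 genes with a single symbol on the array. Each gene was followed through its brightest probe set, a probe set being a group of short DNA probes whose summarised brightness is the intensity. The 79 were split into 35 genes of complex I, 4 of complex II, 8 of complex III, 13 of complex IV, 16 of complex V and 3 associated genes. The associated genes were NDUFA4L2, a paralogue of NDUFA4 known as a hypoxia-inducible gene, COX7A2L, a factor that joins complexes III and IV, and ATP5IF1, the inhibitor of ATP synthase. NDUFA4 itself was counted with complex IV, where its protein sits.

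The study compared 5 groups of 3 animals, all aged 36 months and each read on 1 Affymetrix bovine array. They were Guangxi buffalo (Bubalus bubalis), Qinghai yak (Bos grunniens), and females, castrated males and intact males of Qinchuan cattle (Bos taurus). Per the labels each array is a biological replicate, and no sex is stated for yak or buffalo. The cattle were born close together, were of similar background and were kept alike, and the labels do not describe how yak and buffalo were kept. No group carried a transgene or a drug treatment, and the probes hold cattle sequence for every species.

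Complex I takes electrons from NADH and complex II takes them from succinate, and both pass them to ubiquinone. Complex III hands them on to cytochrome c, and complex IV, the cytochrome oxidase, hands them to oxygen. The proton gradient built on the way drives ATP synthase, complex V. The core subunits of complex I carry out its chemistry, and its accessory subunits surround them and serve stability and assembly. Skeletal and heart muscle use their own isoforms of several complex IV subunits, and slow, oxidative muscle fibres hold more mitochondria than fast, glycolytic ones.

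All 79 genes passed the filter on dim probe sets, which kept 14409 probe sets for testing. The filter took the mean over all 15 arrays, and 7 single values of these genes lay below it. Mean intensities over the 15 arrays lay between 70.71 for COX6B2, a form of the complex IV subunit 6B known from testis, and 8781 for COX5B, and intensities are not comparable between genes. Mean intensity per array was 304.2 to 313.1 in buffalo, 334.9 to 358.7 in yak and 341.8 to 364.3 in cattle. The muscle markers ACTA1, CKM, MB and DES were among the brightest probe sets on every array, with MB at 9245 or more. Intact male 1 stood apart: its mean correlation with the other intact males was 0.931, the lowest of the 15 arrays. Its 7 macrophage markers summed to 21480, the highest of the intact males, whose lowest sum was 3783. Of 34 measured marker genes of other cell types, 0 values were at 0. RNA quality, read as actin signal at the 3' over the 5' end, was 1.42 to 1.73 in buffalo, 1.49 to 1.93 in yak and 1.17 to 1.48 in cattle. The same ratio for GAPDH was 1.22 to 1.5 in buffalo, 1.2 to 1.26 in yak and 1.13 to 1.34 in cattle. Intact male 1 had the highest actin ratio of the cattle, 1.48, and the highest GAPDH ratio, 1.34, against 1.24 to 1.27 and 1.17 to 1.19 in castrated males. The part of RNA quality in the differences among cattle and between species was not tested, and the match of each species to cattle probes cannot be told apart from species.

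**Figure D1:**
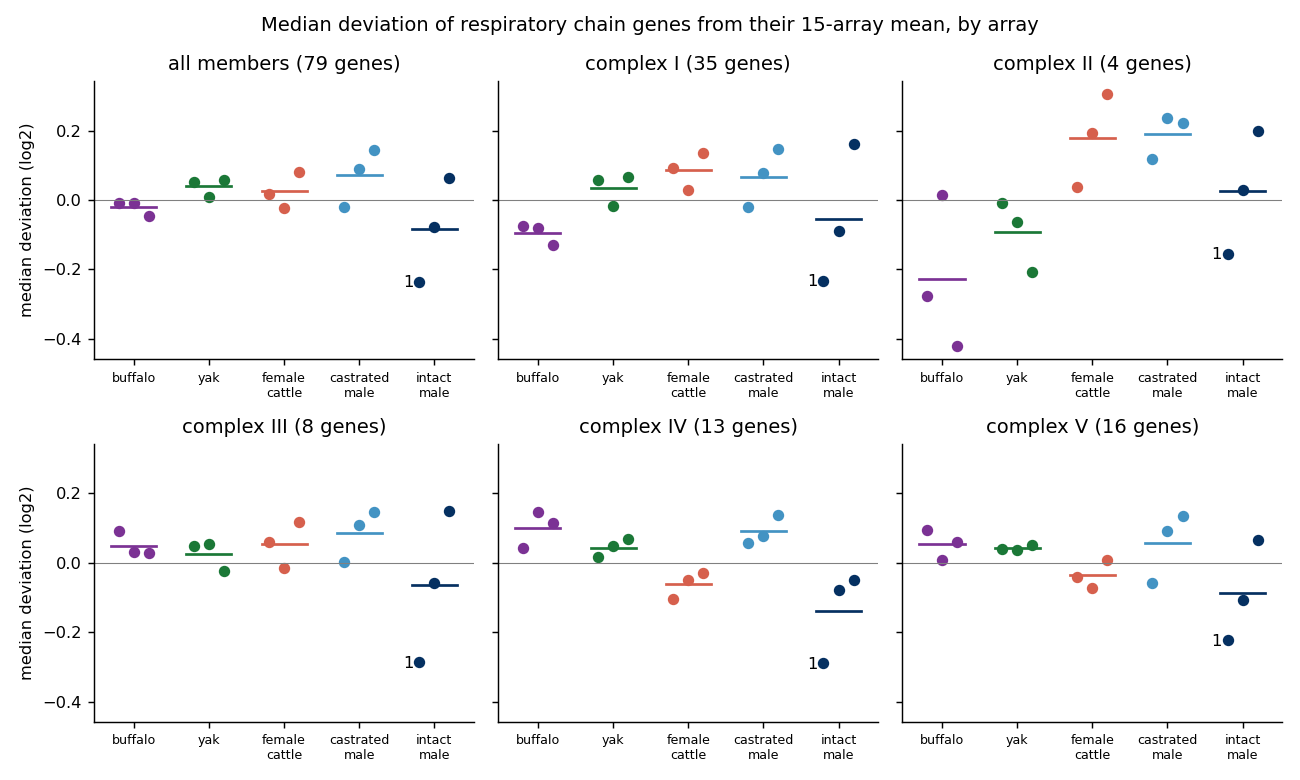
Median deviation of the genes of each complex from their own mean over 15 arrays (vertical axis, log2), 1 point per array and a line at the group mean. Intact male 1, labelled 1, is the lowest array over all 79 genes at -0.24, and castrated male 3 is the highest at 0.14.

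The first comparison among cattle asked what castration does. Castrated males had small positive differences from intact males in most of these genes, and 1 gene passed the test. The median log2 difference was 0.14 over the 79 genes, with 72 positive and 7 negative, against a median of -0.00 over all probe sets tested, of which 50.0% were positive. All 16 genes of complex V and 33 of the 35 of complex I were positive. At an adjusted p under 0.05 (limma, two-sided, Benjamini-Hochberg over all probe sets tested) 1 of 79 genes was called, or 1.27%, against 1.46% of all probe sets (0.625% higher and 0.84% lower). At an unadjusted p under 0.05 there were 14 higher and 1 lower. The median was 0.07, with 61 genes positive, without intact male 1, and 0.23, with 75 positive and 4 called, without intact male 3. Those 4 were 5.06% of the 79 genes, against 6.91% of all probe sets in the same run. Among 479 other probe sets with an intensity of 2607 or more, 62.4% were positive and the median was 0.08. That brightness limit, which most of the 79 genes exceed, was chosen with results of these data known.

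COX8B, the muscle isoform of the smallest nuclear-encoded class of complex IV subunits in cattle, was the gene that rose. It had 4853, 4886 and 4932 in castrated males, against 2323, 3445 and 2877 in intact males. The groups did not overlap, and castrated males lay close together (4890 ± 39.4) while intact males were spread (2881 ± 561; SD, n = 3 each). The log2 difference was 0.78 (SE 0.14, adjusted p = 0.04). The call was lost without any single castrated male or any single female, and after quantile normalisation. The second probe set of COX8B gave a log2 difference of -0.13 with an adjusted p of 0.594.

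The next smallest p-values in this comparison belonged to genes that did not pass. UQCR11, the smallest subunit of complex III, had 6104, 6356 and 6296 in castrated males, against 4868, 5210 and 5390 in intact males (log2 difference 0.28, SE 0.08, adjusted p = 0.109). The groups were apart for this gene as well. COX7A1, the muscle isoform of subunit 7A, had 6533, 6997 and 7026 in castrated males, against 3925, 5611 and 5805 in intact males (log2 difference 0.44, adjusted p = 0.135). NDUFA5, an accessory subunit of the matrix arm of complex I, had 1716, 1546 and 1804 in castrated males, against 960.2, 1263 and 1121 in intact males (log2 difference 0.60, adjusted p = 0.147). Groups did not overlap for 18 genes higher and 1 gene lower in castrated males, against 11.3% and 13.5% of all probe sets.

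**Figure D2:**
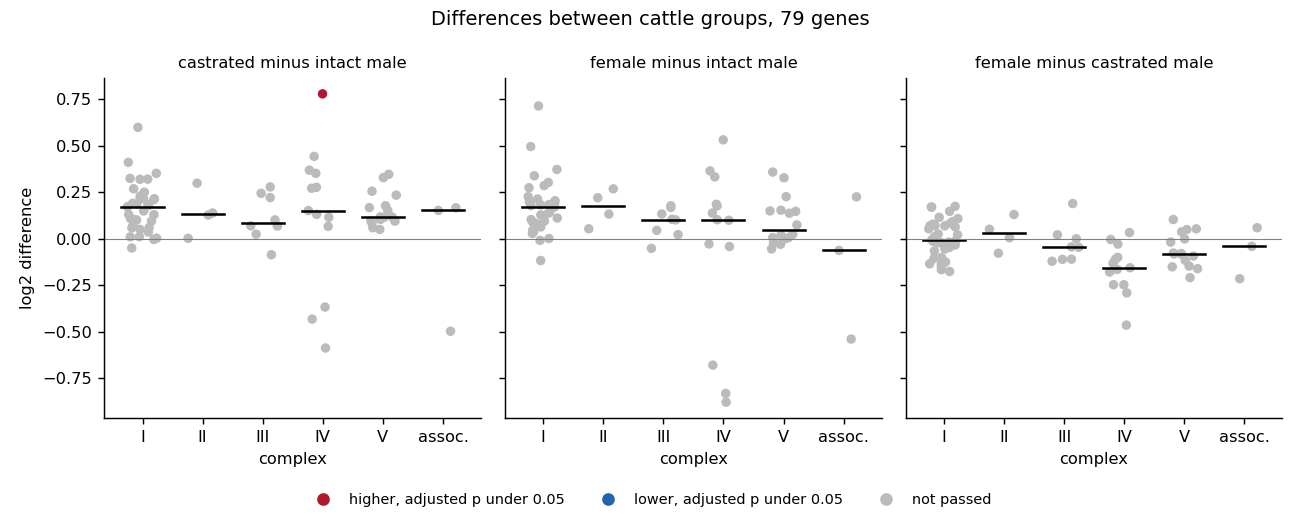
Log2 differences (vertical axis) of 79 genes between cattle groups by complex (horizontal axis), 1 point per gene and a line at the median, with colours for the limma test. The points lie mostly above 0 in both comparisons with intact males, and the red point is COX8B at 0.78.

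The 4 lowest differences from intact males belonged to COX7A2L and to 3 isoforms of complex IV found in most tissues. COX7A2L, the supercomplex factor, had 833, 830.5 and 743.7 in castrated males, against 1432, 1154 and 890.6 in intact males (log2 difference -0.50, SE 0.18, adjusted p = 0.177). It was the gene lower in every castrated male, and the 1 gene lower at an unadjusted p under 0.05. COX6A1 had 768.7, 828 and 616.9 in castrated males, against 2008, 960.2 and 703 in intact males (log2 difference -0.59, SE 0.32, adjusted p = 0.335). These groups overlapped, and the highest value was that of intact male 1. COX8A had 841, 895 and 631.4 in castrated males, against 1781, 901.3 and 736.5 in intact males (log2 difference -0.43, adjusted p = 0.429). COX7A2 had 1104, 1069 and 2489 in castrated males, against 2750, 1732 and 1334 in intact males (log2 difference -0.37, adjusted p = 0.575). On the brightest probe sets, intact male 1 was the highest array of the 15 for these 3 isoforms and for COX7A2L. A second, dimmer probe set of COX6A1 gave 0.56 (adjusted p = 0.402), and the brighter one carries the suffix that Affymetrix gives to probes shared by several transcripts. On the dimmer one intact male 1 was the lowest of the 15 arrays, at 59.35, so its place for COX6A1 depends on the probe set read.

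The muscle counterparts ran the other way in that animal. COX6A2 had 3433, 3513 and 3617 in castrated males, against 2149, 3239 and 2903 in intact males (log2 difference 0.37, adjusted p = 0.228), and intact male 1 was again at the edge, here the lowest. The gap between muscle isoform and counterpart was taken within each array from the brightest probe sets, and only its shift between groups can be read. For COX6A2 minus COX6A1 it averaged 2.24 ± 0.25 in castrated males and 1.28 ± 1.04 in intact males (log2; SD, n = 3 each), with 0.10 in intact male 1. For COX8B minus COX8A it averaged 2.62 ± 0.27 in castrated males and 1.41 ± 0.89 in intact males. For COX7A1 minus COX7A2 the averages were 2.24 ± 0.66 in castrated males and 1.44 ± 0.83 in intact males. Over 18 exact two-sided permutation tests, 3 pairs in 6 comparisons, the smallest adjusted p was 0.257, and 3 arrays against 3 cannot go below an unadjusted 0.1.

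**Figure D3:**
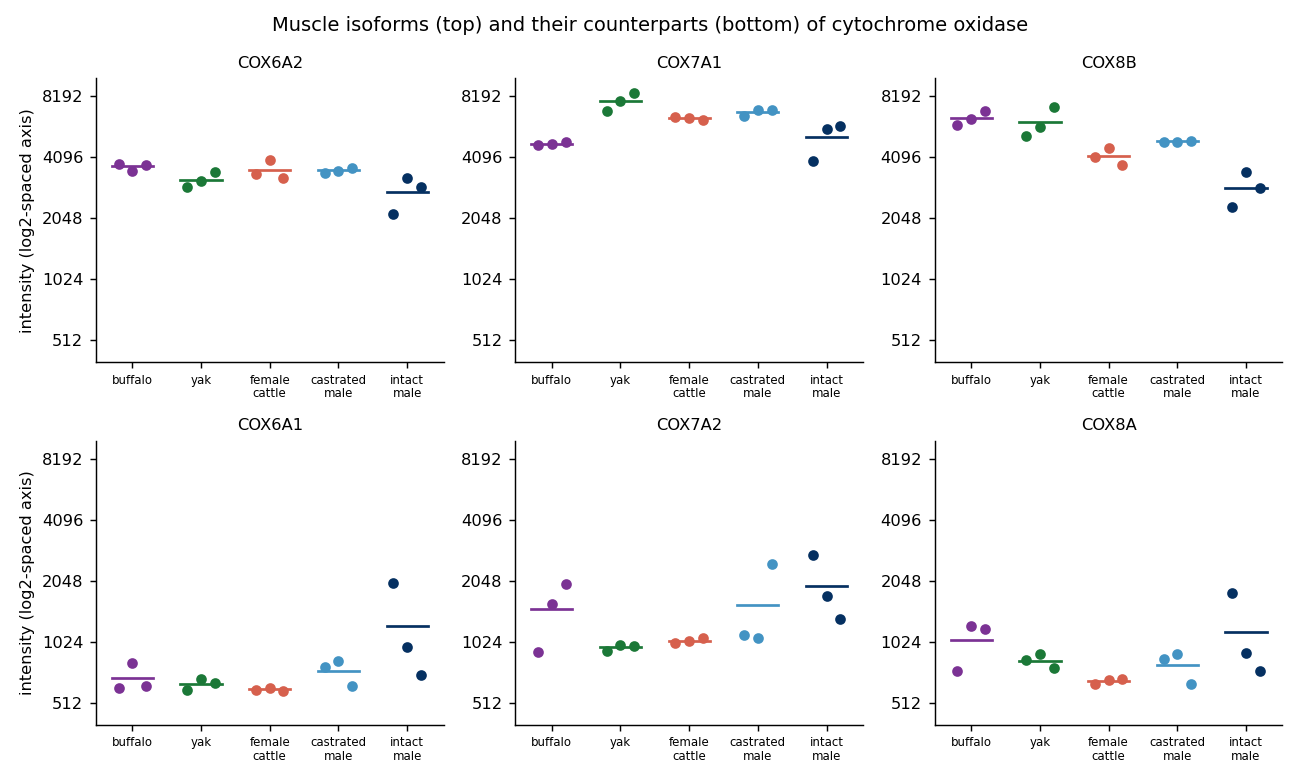
Intensity per array (log-spaced vertical axis) of 3 muscle isoforms of complex IV (top) and their counterparts (bottom), with a line at each group mean. The first intact male, the leftmost point of its group, has the highest COX6A1 (2008) and the lowest COX6A2 (2149) of the 15 arrays. The brightest probe sets are drawn, and on the second COX6A1 probe set, not drawn, the same animal is the lowest (59.35).

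Markers of other cells differed between these groups too. The 7 fibroblast markers summed to 10610 to 11330 in castrated males and 30540 to 40570 in intact males. By limma 6 of the 7 fell, where 0.84% of all probe sets were called lower. The 7 macrophage markers summed to 1136 to 2334 in castrated males and 3783 to 21480 in intact males. By limma none of the macrophage markers passed (0 of 7), and 7 were lower before adjustment, at p under 0.05. In whole muscle, fewer cells of a type and less RNA per cell cannot be told apart, and the part of these markers in the differences of the respiratory chain was not tested.

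Females differed from intact males in a like range, and no gene of the 79 passed. In limma 0 of 79 were called, against 5.5% of all probe sets (2.12% higher and 3.37% lower), with 9 higher and 4 lower at an unadjusted p under 0.05. Another 2 limma settings called 4 and 6 genes, the first weighting arrays and the second fitting all 15 arrays. These were 5.06% and 7.59% of the 79 genes, against 15.8% and 13.3% of all probe sets under the same settings. The median log2 difference was 0.13, with 65 positive and 14 negative, against 0.01 over all probe sets. Without intact male 1 the median was 0.045, with 48 positive, and without intact male 3 it was 0.20, with 72 positive and 4 called. Those 4 were 5.06% of the 79 genes, against 15.2% of all probe sets in the same run. Groups did not overlap for 13 of the 79 genes higher and 4 of the 79 lower in females, against 15.7% and 17.4% of all probe sets.

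NDUFA5 had the largest positive difference in females. It had 2204, 1351 and 2041 in females, against 960.2, 1263 and 1121 in intact males (log2 difference 0.71, SE 0.20, adjusted p = 0.0654). The groups did not overlap. COX8B had 4117, 4519 and 3755 in females, above each intact male (log2 difference 0.53, SE 0.14, adjusted p = 0.0629). COX6A1 had the largest negative difference, with 591.7, 609.3 and 586.6 in females, against 2008, 960.2 and 703 in intact males (log2 difference -0.88, SE 0.32, adjusted p = 0.121). COX7A2L had 866.7, 721.1 and 753.8 in females, against 1432, 1154 and 890.6 in intact males (log2 difference -0.54, adjusted p = 0.0989). Both of these genes were lower in every female than in every intact male. The fibroblast markers summed to 8109 to 9770 in females and 30540 to 40570 in intact males, and the macrophage markers to 895.8 to 1254 in females and 3783 to 21480 in intact males.

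Between females and castrated males the differences were smaller, and most genes of complex IV lay on the lower side in females. In limma 0 of 79 genes passed, against 0.0208% of all probe sets (0.0139% higher and 0.00694% lower), with 0 at an unadjusted p under 0.05. The median log2 difference was -0.03, with 29 positive and 50 negative. Over the 79 genes 1 was higher and 8 were lower in every female than in every castrated male, against 8.9% and 8.56% of all probe sets. In complex IV 12 of 13 genes were negative, with a median of -0.16, and 6 of the 13 were lower in every female than in every castrated male. COX4I1, which begins the ordering of nuclear subunits in complex IV, had 5931, 6681 and 6616 in females, against 7437, 7059 and 7247 in castrated males. Its log2 difference was -0.18 (SE 0.09, adjusted p = 0.676), and the groups did not overlap. COX7A2 had the largest negative difference, -0.46 (adjusted p = 0.799), and UQCRFS1, the iron-sulfur protein of complex III, the largest positive one, 0.19 (adjusted p = 0.859).

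The comparison of species set yak against the 9 cattle, with cattle as the mean of its 3 groups. In yak 9 genes rose and 2 fell, spread over complexes I to V. The 11 genes were 13.9% of the 79, and 29.1% of all probe sets were called (13.2% higher and 15.9% lower). The median log2 difference was 0.04 over the 79 genes and -0.02 over all probe sets. Every yak was above every cattle array for 5 genes and below for 6, against 8.83% and 10.4% of all probe sets. All 11 calls were kept after quantile normalisation and after centring arrays on their median. The counts were 6, 7 and 6 without yak 1, 2 and 3, and 17 (9 higher, 8 lower) without intact male 1. These were 7.59%, 8.86%, 7.59% and 21.5% of the 79 genes, against 15.8%, 17.4%, 24% and 32.2% of all probe sets. With castrated males and females alone as cattle 6 genes were higher and 5 lower, against 9 and 2. That was 13.9% of the 79 genes, against 25.8% of all probe sets.

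UQCR11 of complex III had the smallest p in yak. It had 3709, 3782 and 4117 in yak, against a lowest value of 4868, a median of 5804 and a highest of 6356 in cattle. The species did not overlap, and UQCR11 fell by 0.56 on the log2 scale (SE 0.06, adjusted p = 3.74e-05). UQCRB, a subunit next to the ubiquinone site of the same complex, rose: it had 7211, 7311 and 7296 in yak, against a lowest of 5050, a median of 6194 and a highest of 6744 in cattle. Its log2 difference was 0.24 (SE 0.07, adjusted p = 0.0151). The call of UQCRB was lost without any single yak.

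In complex IV 3 genes rose in yak, among them the muscle isoforms COX8B and COX7A1. COX8B had 5185, 5792 and 7254 in yak, against a lowest of 2323, a median of 4117 and a highest of 4932 in cattle (log2 difference 0.64, SE 0.12, adjusted p = 0.00156). No cattle array reached the lowest yak, and the second COX8B probe set was also higher (0.31, adjusted p = 0.039). COX7A1 had 6881, 7779 and 8430 in yak, against a lowest of 3925, a median of 6372 and a highest of 7026 in cattle (log2 difference 0.35, SE 0.10, adjusted p = 0.0208). Here yak 1 lay within the cattle range, and the call was lost without yak 2 or yak 3. COX5B, which binds zinc, had 10440, 9940 and 9900 in yak, against a lowest of 6915, a median of 8678 and a highest of 9129 in cattle (log2 difference 0.26, SE 0.07, adjusted p = 0.0146). The call of COX5B was lost without yak 1. The third muscle isoform, COX6A2, had a log2 difference of -0.03 (adjusted p = 0.854).

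In complex I 3 accessory subunits rose in yak, NDUFA5 and NDUFA12 of the matrix arm and NDUFB4 of the membrane arm. NDUFA5 had 2339, 2257 and 2319 in yak, against a lowest of 960.2, a median of 1546 and a highest of 2204 in cattle (log2 difference 0.61, SE 0.14, adjusted p = 0.00503). The yak values stood close together above all cattle. Of its other probe sets 1 was higher as well (0.61, adjusted p = 0.0256) and the other gave -0.10. NDUFA12 had a log2 difference of 0.29 (adjusted p = 0.0121) and NDUFB4 one of 0.39 (adjusted p = 0.0245). With castrated males and females alone as cattle, these 3 calls were lost. Those of NDUFA12 and NDUFB4 were also lost without yak 1, and that of NDUFB4 without yak 3.

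ATP synthase and complex II gave the other calls. ATP5ME, the e subunit of the membrane part, had 4910, 4295 and 5111 in yak, against a lowest of 3049, a median of 3645 and a highest of 4437 in cattle (log2 difference 0.40, SE 0.08, adjusted p = 0.00274). Yak 2 lay within the cattle range. ATP5MJ, a small protein of the same membrane part, had a log2 difference of 0.25 (adjusted p = 0.0197), a call lost without any single yak. SDHD, 1 of the 2 membrane anchors of complex II, had 1956, 1847 and 1725 in yak, against a lowest of 2476, a median of 2862 and a highest of 3220 in cattle. No yak reached the lowest cattle, and SDHD fell by 0.61 (SE 0.16, adjusted p = 0.0127), a call lost without yak 2 or yak 3. A second probe set of NDUFS1, the largest core subunit of complex I, was lower in yak (-1.56, adjusted p = 0.000849), while its brightest one gave -0.25 (adjusted p = 0.361).

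Fibre markers moved with species. In yak 7 of 9 slow-fibre genes fell, with 6 after quantile normalisation and 5 after centring arrays. The 7 were 77.8% of the list, where 29.1% of all probe sets were called (15.9% lower). The summed intensity of the 9 genes was 66850 to 75810 in yak and 83570 to 104900 in cattle. MYL3, the slow myosin light chain, had 111.3, 714.1 and 281.5 in yak, against a lowest of 3132, a median of 5725 and a highest of 9739 in cattle (log2 difference -4.20, adjusted p = 1.47e-05). MYL3 was the extreme of the 9 slow-fibre genes, whose median log2 difference was -0.49. By limma 0 of 9 fast-fibre genes passed, and 0 did so at an unadjusted p under 0.05. Fibroblast markers summed to 4242 to 5474 in yak and 8109 to 40570 in cattle, and adipocyte markers to 536.4 to 1152 in yak and 1745 to 5716 in cattle. The part of these markers in the yak differences was not tested.

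Buffalo differed from cattle in many more genes, in both directions. In buffalo 16 of the 79 genes rose and 22 fell, 48.1% in all, where 51.4% of all probe sets were called (23% higher and 28.4% lower). The median log2 difference was -0.00 over the 79 genes and -0.03 over all probe sets. Every buffalo was above every cattle array for 7 genes and below for 10, against 13.8% and 18.3% of all probe sets. By complex, 3 genes rose and 12 fell of 35 in complex I, 3 fell of 4 in complex II, and 1 rose and 2 fell of 8 in complex III. In complex IV 4 rose and 2 fell of 13, and in complex V 7 rose and 2 fell of 16. The complexes were not tested against each other. The count lay between 28, without buffalo 2 or buffalo 3, and 42, without intact male 1. These were 35.4% and 53.2% of the 79 genes. Over all probe sets 43.1% and 43.2% were called without buffalo 2 and buffalo 3, and 54.7% without intact male 1.

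This split depends on the scaling of the arrays. After quantile normalisation 34 genes were higher and 12 lower in buffalo, against 16 and 22 in the values as deposited. In complex I the split became 13 higher and 7 lower, and in complex V 10 higher and 0 lower. The median over the 79 genes was then 0.18, against -0.00 in the values as deposited. Of the 22 genes called lower 10 were lost and 0 were called higher. After quantile normalisation 58.2% of the 79 genes were called, against 54.7% of all probe sets. The 479 other bright probe sets had a median log2 difference of -0.23 in the values as deposited and -0.03 after quantile normalisation. The calls kept under all 3 scalings, as deposited, quantile normalised and centred, were 14 higher, the dim COX6B2 among them, and 12 lower. No share of all probe sets was taken for calls kept under all 3 scalings.

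**Figure D4:**
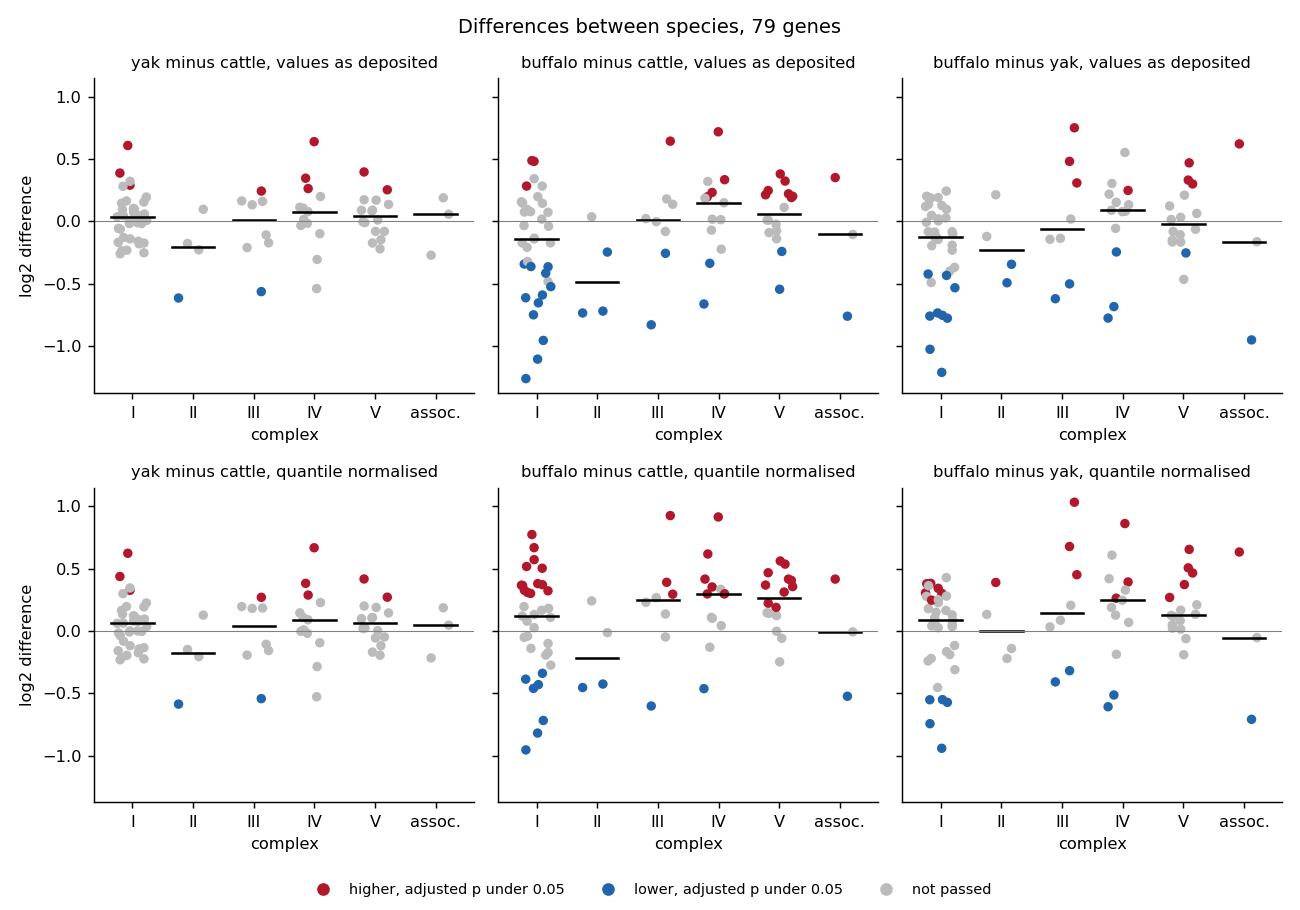
Log2 differences (vertical axis) of 79 genes between species by complex (horizontal axis), from the values as deposited (top) and after quantile normalisation (bottom), with a line at each median. The buffalo minus cattle points shift upward as a whole, with 34 called higher and 12 lower after quantile normalisation, against 16 and 22 in the values as deposited.

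The lower genes kept under all 3 scalings included 7 of complex I, all of them accessory. Of the 35 complex I genes measured, 6 are core subunits and the rest are accessory. NDUFS6, an accessory subunit of the matrix arm that binds zinc, had 1218, 1414 and 1190 in buffalo, against a lowest of 2807, a median of 3008 and a highest of 3360 in cattle. Every buffalo was far below every cattle array, and NDUFS6 fell by 1.26 on the log2 scale (SE 0.09, adjusted p = 1.9e-07), the smallest p of the 79 genes. NDUFS4, another matrix arm subunit, mutated in human Leigh syndrome, had 2193, 3291 and 2759 in buffalo, against a lowest of 4499, a median of 5197 and a highest of 6171 in cattle (log2 difference -0.95, SE 0.12, adjusted p = 2.18e-05). NDUFV3, next to the flavoprotein that binds NADH, had 1435, 967.6 and 1074 in buffalo, against a lowest of 1609, a median of 1908 and a highest of 2345 in cattle (log2 difference -0.75, adjusted p = 0.000289). None of these 3 genes overlapped between the species.

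In the membrane arm, NDUFB10 had 3236, 2937 and 2888 in buffalo, against a lowest of 3988, a median of 4586 and a highest of 5461 in cattle (log2 difference -0.61, SE 0.09, adjusted p = 6.04e-05). NDUFB9 had 3170, 3738 and 3401 in buffalo, against a lowest of 3978, a median of 5739 and a highest of 6066 in cattle (log2 difference -0.65, SE 0.10, adjusted p = 0.000188). Both accessory subunits were lower in every buffalo. NDUFA12 of the matrix arm ran the other way, with 6809, 6633 and 7027 in buffalo, against a lowest of 4115, a median of 4966 and a highest of 6014 in cattle (log2 difference 0.48, SE 0.08, adjusted p = 0.000162). By limma 0 of the 6 core subunits of the matrix arm passed. Before adjustment 3 were higher and 2 lower at p under 0.05, and 3 were higher after quantile normalisation. Of the 29 accessory subunits 15 passed, 66.7% of the 9 in the matrix arm and 45% of the 20 in the membrane arm. Over all probe sets 51.4% were called, so the accessory subunits as a whole lay near that share.

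Complex II was lower in 3 of its 4 genes. SDHA, the flavoprotein that oxidises succinate, had 1852, 1340 and 1746 in buffalo, against a lowest of 2240, a median of 2779 and a highest of 3021 in cattle (log2 difference -0.72, SE 0.12, adjusted p = 0.000336). No buffalo reached the lowest cattle array. SDHB, its iron-sulfur partner, did not pass, with 7115, 6062 and 5275 in buffalo, against a lowest of 3970, a median of 6246 and a highest of 6732 in cattle (log2 difference 0.04, adjusted p = 0.807). Of the anchors, SDHD had 1225, 2514 and 1571 in buffalo, against a lowest of 2476 and a highest of 3220 in cattle. Its log2 difference was -0.73 (adjusted p = 0.00199), and buffalo 2 lay within the cattle range. SDHC had a log2 difference of -0.24 (adjusted p = 0.0437), and the call of SDHC was lost after quantile normalisation. It was also lost without any single yak, without buffalo 1 or buffalo 3, and without replicate 2 or 3 of intact males, castrated males or females.

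In complexes III and IV single subunits were called in either direction. UQCR10 had 3093, 3498 and 2853 in buffalo, against a lowest of 5061, a median of 5588 and a highest of 6224 in cattle (log2 difference -0.83, SE 0.08, adjusted p = 3.09e-06). COX4I1 had 4592, 4141 and 4009 in buffalo, against a lowest of 5931, a median of 6775 and a highest of 7437 in cattle (log2 difference -0.66, SE 0.07, adjusted p = 2.97e-06). UQCRQ, a ubiquinone-binding subunit of complex III, was higher, with 1002, 917.8 and 1046 in buffalo, against a lowest of 529.5, a median of 593.3 and a highest of 839.1 in cattle (log2 difference 0.64, SE 0.13, adjusted p = 0.00113). Species did not overlap for any of the 3.

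In complex V the genes that rose had small differences. ATP5F1C, the turning central stalk of ATP synthase, had a log2 difference of 0.38 (SE 0.10, adjusted p = 0.00507), and ATP5MC1, which encodes the c subunit of the rotor ring, 0.32 (SE 0.09, adjusted p = 0.00981). ATP5MC2 and ATP5MC3, which encode the same mature c subunit, gave -0.07 (adjusted p = 0.495) and 0.01 (adjusted p = 0.922). ATP5F1D, the delta subunit, fell by 0.54 (SE 0.15, adjusted p = 0.00938), and that call was lost after quantile normalisation. Of the associated genes, COX7A2L had 384.3, 691.5 and 529.5 in buffalo, against a lowest of 721.1, a median of 833 and a highest of 1432 in cattle (log2 difference -0.76, SE 0.17, adjusted p = 0.00187). NDUFA4L2 had 155.8, 155.5 and 145.4 in buffalo, against a lowest of 92.03, a median of 111.5 and a highest of 141.6 in cattle (log2 difference 0.35, SE 0.11, adjusted p = 0.0144). For neither gene did a buffalo array fall within the cattle range.

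Several calls in buffalo rest on which probe set was read. Of 11 genes with several probe sets past the filter, 4 had probe sets called in opposite directions in buffalo minus cattle: COX8B, NDUFB2, NDUFA5 and NDUFA11. The opposed call of NDUFA11 rests on a probe set close to the filter value. The brightest probe set of COX8B had 5920, 6307 and 6884 in buffalo, against a lowest of 2323, a median of 4117 and a highest of 4932 in cattle (log2 difference 0.72, SE 0.12, adjusted p = 0.000217). Its second probe set had 626.1, 593.9 and 625.8 in buffalo, against a lowest of 966.6, a median of 1080 and a highest of 1219 in cattle (log2 difference -0.80, SE 0.10, adjusted p = 3.6e-05). Neither probe set overlapped between species, in opposite directions.

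NDUFB2, a membrane arm accessory subunit of complex I, gave 0.28 (adjusted p = 0.0126) on its brightest probe set and -1.82 (adjusted p = 1.52e-06) on the other. NDUFA5 gave 0.49 (adjusted p = 0.00858) on the brightest of its 3 probe sets, -0.85 (adjusted p = 0.00184) on the dimmest and -0.06 (adjusted p = 0.714) on the other. NDUFA11, a membrane arm subunit, had 892.3, 887.9 and 623.2 in buffalo, against a lowest of 1363, a median of 1818 and a highest of 1913 in cattle (log2 difference -1.10, SE 0.12, adjusted p = 9.19e-06). Its dim second probe set gave 0.32 (adjusted p = 0.00725). The second NDUFS1 probe set was lower in buffalo (-2.07, adjusted p = 2.52e-05), and the brightest did not pass (-0.48, adjusted p = 0.0562). For genes with a single probe set no such comparison could be made.

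**Figure D5:**
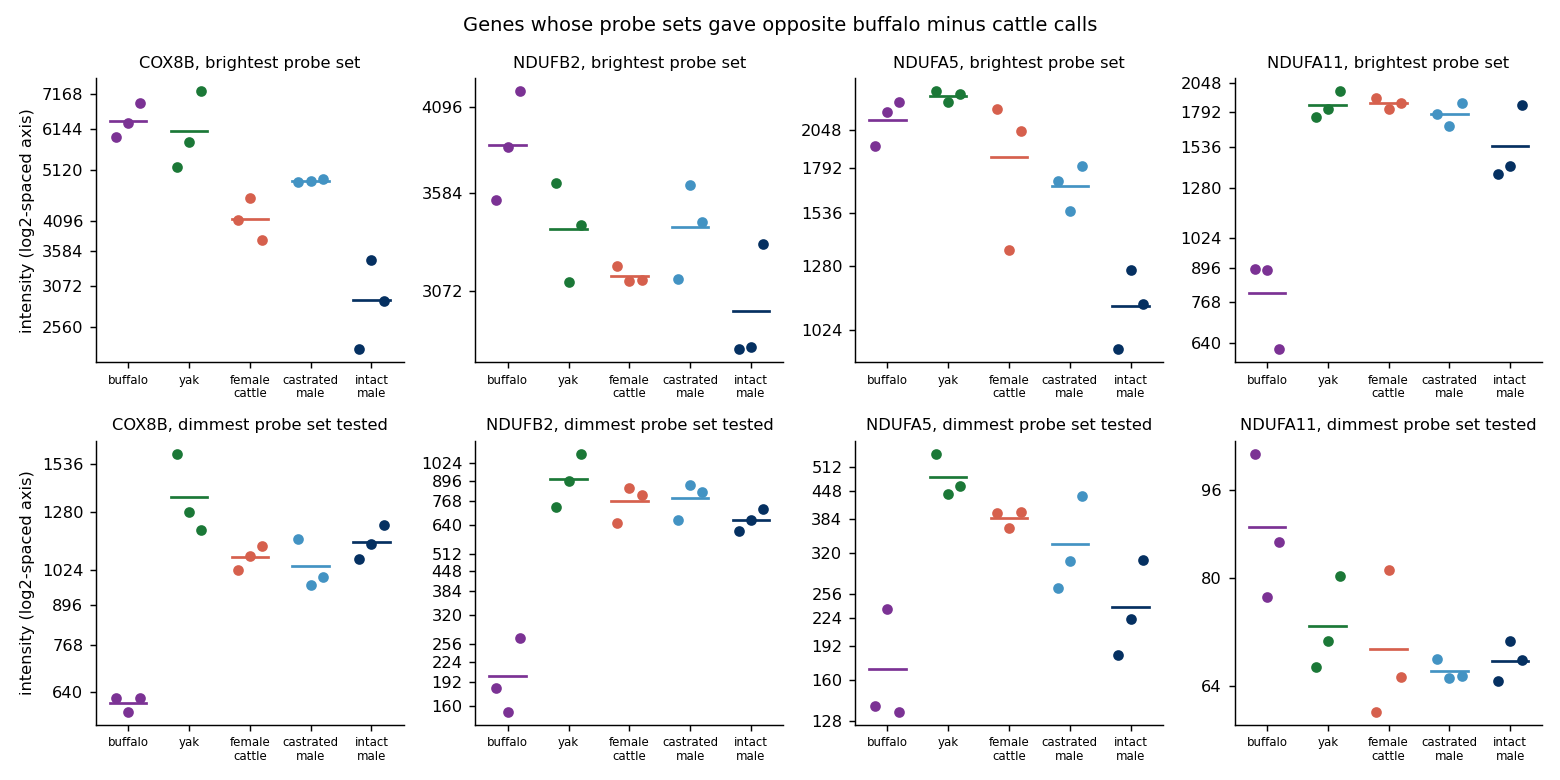
Intensity per array (log-spaced vertical axes with their own ranges) of the brightest and the dimmest tested probe set of 4 genes, with a line at each group mean. For COX8B the 3 buffalo lie above all cattle on the brightest probe set and below all cattle on the other. The dimmest NDUFA11 probe set lies close to the filter on dim probe sets.

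Fibre and cell markers also differed in buffalo. Of 9 slow-fibre genes 4 rose and 2 fell, and of 9 fast-fibre genes 4 fell, with the same counts after quantile normalisation. The called share was 66.7% of slow-fibre and 44.4% of fast-fibre genes, against 51.4% of all probe sets (23% higher and 28.4% lower). The slow-fibre genes summed to 91980 to 96920 in buffalo and 83570 to 104900 in cattle, and the fast-fibre genes to 80730 to 96190 in buffalo and 81820 to 123700 in cattle. All 7 fibroblast markers fell, with sums of 3614 to 5937 in buffalo and 8109 to 40570 in cattle. Their part in the buffalo differences was not tested.

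Buffalo were also set against yak directly, which needs no cattle array in the difference. In buffalo 8 genes rose and 18 fell relative to yak, 32.9% of the 79, where 42.2% of all probe sets were called (19.5% higher and 22.7% lower). The species did not overlap for 15 genes higher and 26 lower in buffalo, against 26.7% and 28.5% of all probe sets. After quantile normalisation 19 were higher and 10 lower, and after centring arrays 5 were higher and 23 lower. These calls were 36.7% and 35.4% of the 79 genes, against 42.8% and 41.2% of all probe sets under the same scalings. The calls kept under all 3 scalings were 5 higher and 10 lower, and no such share of all probe sets was taken. All 9 calls of complex I were lower in the values as deposited, while after quantile normalisation 6 of its genes were higher and 5 lower.

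COX4I1 had the smallest p here, with 4592, 4141 and 4009 in buffalo, against 7355, 7451 and 6995 in yak (log2 difference -0.77, SE 0.08, adjusted p = 7.66e-06). NDUFS6 had 1218, 1414 and 1190 in buffalo, against 2800, 2635 and 2378 in yak (log2 difference -1.02, SE 0.11, adjusted p = 1.26e-05). NDUFA11 had the largest negative difference, -1.21 (SE 0.15, adjusted p = 4.04e-05). Each of these was lower in every buffalo than in every yak. NDUFB10 gave -0.76, NDUFB9 -0.75, NDUFS4 -0.77, UQCR10 -0.62, UQCRB -0.50 and NDUFV3 -0.73, and all 6 were called lower. The NDUFV3 call was the one among these 6 that was lost after quantile normalisation.

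COX7A1, the muscle isoform, had 4713, 4756 and 4859 in buffalo, against 6881, 7779 and 8430 in yak (log2 difference -0.68, SE 0.12, adjusted p = 0.000743). Against cattle this gene was lower in buffalo (-0.33, adjusted p = 0.0138, lost after quantile normalisation) and higher in yak (0.35, adjusted p = 0.0208), and these comparisons share the 9 cattle arrays. UQCR11 was higher in buffalo, with 5418, 5673 and 5135, against 3709, 3782 and 4117 in yak (log2 difference 0.48, SE 0.07, adjusted p = 0.000201). UQCRQ had the largest positive difference, 0.75 (SE 0.16, adjusted p = 0.0022), and NDUFA4L2 had 155.8, 155.5 and 145.4 in buffalo, against 85.51, 92.6 and 102.3 in yak (log2 difference 0.62, SE 0.13, adjusted p = 0.00209). No buffalo value of UQCR11 or NDUFA4L2 fell within the yak range.

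Several catalytic or core subunits, and the accessory subunit NDUFA1, passed in neither species against cattle. For NDUFV1, which binds NADH, the log2 difference was -0.17 in buffalo (SE 0.16, adjusted p = 0.37) and -0.17 in yak (SE 0.16, adjusted p = 0.445). UQCRC1, a core protein of complex III, gave -0.00 in buffalo (SE 0.15) and 0.13 in yak (SE 0.15). UQCRFS1 gave 0.18 in buffalo and 0.16 in yak, with an SE of 0.13 in each. ATP5F1A, the alpha subunit of ATP synthase, gave -0.14 in buffalo (adjusted p = 0.177) and -0.17 in yak (adjusted p = 0.134), each with an SE of 0.08. ATP5F1B, the catalytic beta subunit, had 6165, 5356 and 5894 in buffalo, against 4485, 4709 and 4611 in yak, and rose in that comparison (log2 difference 0.33, SE 0.11, adjusted p = 0.0295). That call was lost after centring arrays and with the mean of all probe sets of a gene. It was also lost without any single yak and without buffalo 1 or buffalo 3. NDUFA1, of the membrane arm, gave 0.02 in buffalo and -0.01 in yak, with an SE of 0.07 in each.

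In the groups of mitochondrial genes around these subunits, 0 genes passed between castrated and intact males in limma. At an unadjusted p under 0.05 there were 4 higher and 0 lower assembly factors, 2 higher and 3 lower carriers and coenzyme Q genes, 2 higher and 2 lower biogenesis regulators, and 3 higher and 1 lower import genes. Between females and intact males SLC25A6 fell by 1.15 (adjusted p = 0.0467) and TFB1M rose by 0.67 (adjusted p = 0.026), and no other gene of these 4 groups passed.

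Of 27 factors that assemble the complexes, 7 rose and 11 fell in buffalo, with 10 and 9 after quantile normalisation, and 6 rose and 2 fell in yak. The called share was 66.7% in buffalo, where it was 51.4% over all probe sets, and 29.6% in yak, near the 29.1% over all probe sets. TTC19, needed for complex III, had 100.2, 118 and 131.8 in buffalo, against a lowest of 349.4, a median of 491.7 and a highest of 686.2 in cattle (log2 difference -1.93, SE 0.14, adjusted p = 1.58e-07). The species were far apart. TMEM70, which builds the c-ring of ATP synthase, fell by 1.54 in buffalo, ATPAF2 by 1.12 and SCO1, a copper chaperone of complex IV, by 0.90. In yak COX11, another copper chaperone, rose by 0.72 (adjusted p = 0.000956), COA5 by 0.85 (adjusted p = 0.00269) and ATPAF2 by 0.47 (adjusted p = 0.00644), while COX20 fell by 0.96 (adjusted p = 0.00637).

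Of 14 regulators of mitochondrial biogenesis 6 rose and 2 fell in buffalo, with 9 and 1 after quantile normalisation, and 2 rose and 1 fell in yak. The called share was 57.1% in buffalo, against 51.4% of all probe sets, and 21.4% in yak, against 29.1%. PPARGC1A, the coactivator that switches on mitochondrial genes, had 288.5, 384.2 and 338.2 in buffalo, against a lowest of 75.13, a median of 135 and a highest of 174.9 in cattle (log2 difference 1.33, SE 0.20, adjusted p = 0.000133). Every buffalo was above every cattle array. TFB1M, which methylates mitochondrial ribosomal RNA, rose by 0.68 in buffalo and TFB2M, which starts mitochondrial transcription, fell by 1.13. SSBP1, which binds mitochondrial DNA, fell by 0.54 in buffalo, a call lost after quantile normalisation, and by 0.46 in yak. NFE2L2 rose by 0.84 and SIRT3 by 0.43 in yak.

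Among 21 carriers and coenzyme Q genes 1 rose and 4 fell in each species against cattle. After quantile normalisation 4 rose and 4 fell in buffalo, and 2 rose and 4 fell in yak. The called share, 23.8% in each species, was below that of all probe sets, 51.4% in buffalo and 29.1% in yak. SLC25A6, an exchanger of ADP and ATP, had 234.7, 262.4 and 234.9 in buffalo, against a lowest of 731.4, a median of 1021 and a highest of 2826 in cattle (log2 difference -2.23, SE 0.19, adjusted p = 9.95e-07). COQ2, an enzyme of coenzyme Q synthesis, fell by 1.89 in buffalo and by 0.62 in yak, and VDAC3 fell by 0.51 in buffalo. UCP2, an uncoupling protein relative, fell by 0.58 in buffalo (adjusted p = 0.013) and rose by 0.99 in yak (adjusted p = 0.00113). In yak ETFB fell by 0.63 and COQ3 by 0.50.

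Of 24 genes of mitochondrial import and inner membrane structure, 5 rose and 4 fell in buffalo, with 7 and 2 after quantile normalisation, and 4 rose and 1 fell in yak. The called share was 37.5% in buffalo, against 51.4% of all probe sets, and 20.8% in yak, against 29.1%. TIMM13 fell by 1.10 in buffalo (adjusted p = 4.1e-05) and rose by 0.73 in yak (adjusted p = 0.00264). TIMM9 rose by 1.19 and IMMT, which shapes the cristae, by 0.70 in buffalo, and TIMM23 fell by 0.58, a call lost after quantile normalisation. In yak TOMM22 rose by 0.46 and TIMM8B by 0.48, and TSPO fell by 0.69. CYC1 and NDUFAB1, which are subunits by function but not by the symbol rule, were called in 0 of the 6 comparisons in limma, with NDUFAB1 lower in buffalo than in yak at an unadjusted p of 0.0354.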

How the data were processed

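RNA from longissimus dorsi of 15 animals was extracted with Trizol and hybridised to Affymetrix bovine arrays, per the labels' protocols. The deposited values are the authors' intensity per probe set on a linear scale, 1 value per array. Which software, background correction or scaling they used was not given in the sources used here. All 15 arrays had close medians but not 1 shared distribution. Groups came from the labels. Genes came from the platform annotation, where 13292 probe sets have 1 symbol, 86 have several and 10638 are not listed.

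Of 24128 probe sets 112 controls were left out. The analysis used log2(intensity + 16), so folds of dim genes are understated. Probe sets above the 40th percentile of mean log2 intensity, 6.42, were tested with limma 3.58.1 in R 4.3.3 (lmFit and eBayes with a trend), two-sided, with Benjamini-Hochberg adjustment over all 14409 and a threshold of 0.05. Cattle groups were compared on 9 arrays and species on 15, the 3 cattle groups weighing equally. The code was tested on simulated data. Precision is limited by 3 arrays a group.

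The 79 genes, the other gene lists and the tests were chosen with earlier results of these data known. The text names called genes where 12 or fewer passed and otherwise the 12 with the smallest p. It also names the largest differences, isoform pairs, catalytic subunits, genes whose probe sets oppose each other, and up to 4 called genes per list. Genes outside this rule (UQCR11, COX7A1, NDUFA5 and COX7A2L in castrated males, several genes in buffalo) were chosen after their values were seen. Alternatives were other added values, filters, scalings and limma settings, a replicate block, the mean of all probe sets of a gene, other cattle groups or arrays in the fit, and leaving out each array.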

Additional observations from a re-analysis of the deposited data

How the results depend on the processing

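The count of called genes in castrated against intact males, 1, became 0 after quantile normalisation, with a replicate block and with the mean of all probe sets of a gene, 3 with array weights and 2 with all 15 arrays fitted. It was 0 to 4 when 1 array was left out. In females against intact males the 0 calls became 4 with array weights and 6 with all 15 arrays fitted, and 0 to 4 without 1 array; in both comparisons the 4 came without intact male 3. Females against castrated males had 0 under every alternative run, and 0 without any 1 array. The 11 calls in yak against cattle became 25 with array weights (13 higher, 12 lower) and 6 to 17 without 1 array. The 38 calls in buffalo against cattle became 46 after quantile normalisation, with more higher than lower (34 and 12), and 28 to 42 without 1 array. The 26 calls in buffalo against yak became 29 after quantile normalisation (19 higher, 10 lower), and 18 to 30 without 1 array. With the mean of all probe sets of a gene, the buffalo minus cattle difference changed sign for ATP5MG (-0.012, adjusted p = 0.921), COX8B (-0.04, adjusted p = 0.716), NDUFA5 (-0.14, adjusted p = 0.309) and NDUFB2 (-0.77, adjusted p = 0.000102). These follow from averaging in probe sets with lower values in buffalo. The cause of the other changes was not tested. Over the called genes, 1835 alternatives kept direction and call, 177 kept direction and lost the call, and 4 changed sign.

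Groups share replicate numbers, and the deviations of same-numbered arrays had correlations of -0.326 to 0.145, so the numbers were not taken as pairs. With a replicate block the counts were 0, 0, 0, 12, 38 and 25 in the order above, against 1, 0, 0, 11, 38 and 26. With 3 arrays a group, cattle probes for all species and unstated normalisation, small log2 differences between species rest on the scaling chosen.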
